A study of Oryza sativa with 16 samples.

Results

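A group of rice genes known to respond to the hormone abscisic acid (ABA) was followed across the 16 libraries of the series. They were OsRePRP1.1, OsRePRP1.2, OsRePRP2.1, EFA27 and AWPM-19, which are 5 of the 37849 genes counted, and they were picked by gene identifier. The list was drawn up with stress results of these same libraries known, so the stress values of the 5 genes are a description and carry no test. Root was tested against shoot and N22 against IR64, which are other contrasts of the same libraries. Since the stress results known were given by genotype and tissue, these p-values are not independent of the choice of genes either.

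Root and shoot RNA came from seedlings of N22 (Nagina 22), an aus variety of rice, and IR64 (IR 64), an indica variety. Seedlings grew in pots of vermiculite and perlite in a net-house with NH4NO3 as their sole nitrogen source, with too little nitrogen (N-W+), too little water (N+W-), both shortages (N-W-) or optimal supply (N+W+). The authors pooled RNA of the biological replicates, so every combination of genotype, tissue and treatment is 1 library, and a difference between 2 libraries has no replicate check. By the labels, N+W- and N-W- plants were 21 days old after limited water (10 mL) from day 15 to day 21, while N-W+ and N+W+ plants were 15 days old and had 100 mL of water a day. If these ages hold, low water and age cannot be told apart. The nitrogen doses of the labels contradict each other. Their treatment protocol gives 0.4 mM NH4NO3 under nitrogen stress and 0.08 mM otherwise, while the sample description of N-W+ gives 0.04 mM, and the study's methods give other doses, ages and volumes. Groups are therefore called by their treatment names, and low nitrogen or low water below means only the N- or W- of the name.

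ABA accumulates in plants that lose water. It binds PYL/RCAR receptors, which then block clade A protein phosphatases 2C, and the SnRK2 kinases (SAPK in rice) so released activate bZIP factors that switch on protective genes such as dehydrins and other LEA proteins. OsRePRP genes encode repetitive proline-rich proteins of rice that are induced by ABA in roots and restrict the elongation of root cells. EFA27 is a calcium-binding caleosin, a protein family of lipid bodies, first described in rice as an ABA-induced gene, and AWPM-19 belongs to a family named after a plasma membrane protein that ABA induces in wheat.

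All 5 genes are listed as protein coding on IRGSP-1.0, and no other annotated gene overlaps any of them. OsRePRP1.1 (Os05g0226900) lies at chr5:7721638-7723146 on the minus strand as 1 exon of 1509 bases. OsRePRP1.2 (Os05g0227600) lies 23395 bases away at chr5:7746542-7748227 on the same strand, as 1 exon of 1686 bases. The 2 genes of this family are called neighbours below because of this distance, and genes lying between them were not looked for. OsRePRP2.1 (Os07g0418700) is a single exon of 1088 bases at chr7:13366416-13367503 on the plus strand. Its relative OsRePRP2.2 (Os07g0418600), which is not among the 5, lies 11124 bases away at chr7:13354235-13355291 on the minus strand. EFA27 (Os04g0511200) spans chr4:25563419-25565153 on the minus strand with 6 exons and 1035 exonic bases. AWPM-19 (Os05g0381400) is a single exon of 858 bases at chr5:18429433-18430290 on the minus strand. Shared reads between family members were rare. All exon reads of OsRePRP1.1, OsRePRP1.2, EFA27 and AWPM-19 were unique, and so were 129 of the 132 exon reads of OsRePRP2.1.

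Root libraries held 8272195 to 13675454 exon reads (median 10372369) and shoot libraries 2420338 to 11379518 (median 7241988), the lowest being N22 shoots under N-W+. Levels are given as CPM, the exon reads relative to library size after TMM scaling over the 16 libraries. The scaling factors ran from 0.584 (IR64 shoots, N+W+) to 1.44 (N22 shoots, N-W+). A count of 0 allows up to 3 counts, and this floor was 0.187 to 0.859 CPM. Intervals and floors cover counting error only. The tissue labels matched their markers. The 6 root markers summed to 1616 to 4825 CPM in roots and 11.2 to 31.1 CPM in shoots, and the 11 shoot markers to 13.7 to 90.2 CPM in roots and 12133 to 193336 CPM in shoots.

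**Figure D1:**
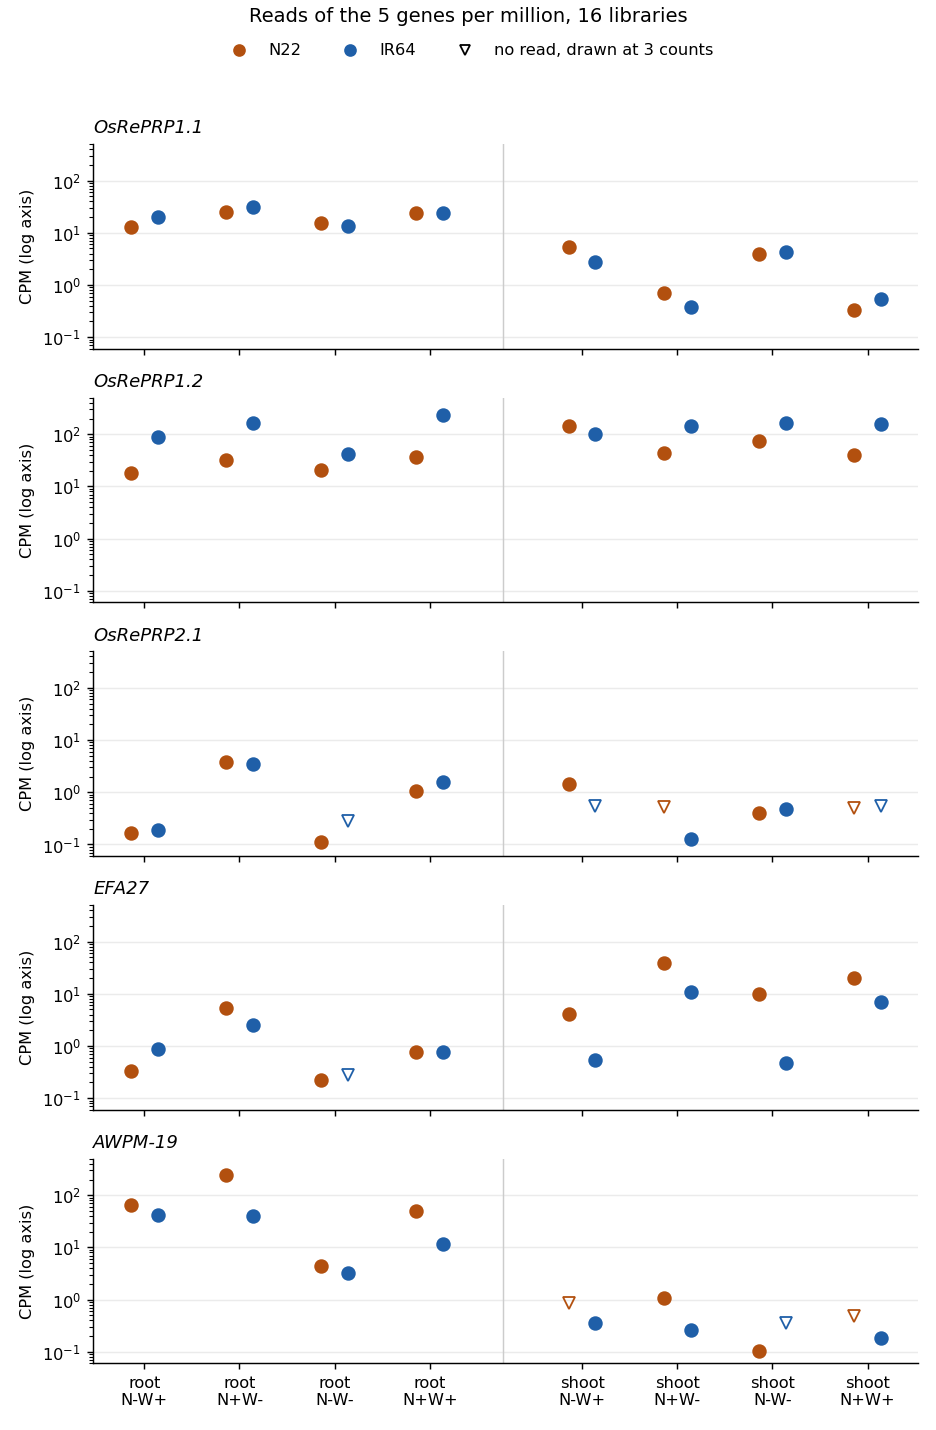
Levels (CPM, log axis) of the 5 genes in each of the 16 libraries, with roots on the left and shoots on the right, N22 in brown and IR64 in blue. Open triangles mark libraries without a read, drawn at the level of 3 counts. AWPM-19 lies at 3.26 to 248 CPM in roots and at most at 1.05 CPM in shoots, whereas OsRePRP1.2 has reads in every library.

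The genes divided first by tissue. OsRePRP1.1 had 13.0 to 31.1 CPM in the 8 root libraries (median 21.8) and 0.326 to 5.44 CPM in the 8 shoot libraries (median 1.70). AWPM-19 had 3.26 to 248 CPM in roots (median 41.0) and 0 to 1.05 CPM in shoots (median 0.141), where 12 reads in all were counted and 3 of the 8 libraries had none. The ranges of root and shoot libraries did not overlap for either gene, and how many of all genes show this was not counted. EFA27 ran the other way, with 0 to 5.34 CPM in roots (median 0.768) and 0.473 to 38.6 CPM in shoots (median 8.51), and its ranges overlapped. OsRePRP1.2 was read in both tissues, at 18.0 to 229 CPM in roots (median 39.8) and 40.8 to 161 CPM in shoots (median 122). OsRePRP2.1 was the gene with fewest reads, 0 to 3.80 CPM in roots (118 reads in all) and 0 to 1.43 CPM in shoots (14 reads in all).

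Of 21692 genes tested between root and shoot (edgeR, blocked by genotype and treatment, 7 residual degrees of freedom), 43.4% were called at an adjusted p of 0.05, with 22.0% higher and 21.4% lower in roots. Of the 4 genes that passed the filter on low counts, 2 were called higher and 1 lower in roots. AWPM-19 was higher in roots by 7.50 on the log2 scale (SE 0.51, edgeR adjusted p = 2.57e-06) and in 8 of 8 pairs of libraries. OsRePRP1.1 was higher in roots by 3.56 (SE 0.69, edgeR adjusted p = 0.00189), also in 8 of 8 pairs. EFA27 had a log2 difference of -3.14 (SE 0.61, edgeR adjusted p = 0.00193) and was higher in roots in 1 of 8 pairs, IR64 under N-W+, where 14 reads in root stood against 3 in shoot. These are tests over treatments of pooled libraries, and in bulk tissue fewer cells that express a gene cannot be told apart from less RNA per cell. OsRePRP1.2 was not called (log2 -0.86, SE 0.42, edgeR adjusted p = 0.123, higher in roots in 2 of 8 pairs). OsRePRP2.1 did not pass the filter and was higher in roots in 5 of 8 pairs. In IR64 libraries alone the difference of EFA27 was -1.99 and was no longer called (edgeR adjusted p = 0.133). Among all genes called, 50.7% were higher in roots, and 60.7% with library totals as the scale.

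Levels between genes were compared as TPM, the authors' value per exon length. In roots the medians were 81.7 TPM for AWPM-19, 33.7 TPM for OsRePRP1.2, 22.0 TPM for OsRePRP1.1, 1.03 TPM for EFA27 and 0.817 TPM for OsRePRP2.1. The ranges of neighbours in this order overlapped except between OsRePRP1.1, whose lowest root library had 12.3 TPM, and EFA27, whose highest had 8.15 TPM. In shoots the order was OsRePRP1.2 at 70.6 TPM, EFA27 at 8.28 TPM, OsRePRP1.1 at 1.42 TPM, AWPM-19 at 0.155 TPM and OsRePRP2.1 at 0.0516 TPM, and every pair of neighbours overlapped. The first place of AWPM-19 in roots came from N22, where its median was 95.4 TPM and that of OsRePRP1.2 was 24.3 TPM. In IR64 roots the medians were 50.5 TPM for AWPM-19 and 129 TPM for OsRePRP1.2, which was the higher of both in each of the 4 treatments, as it was in N22 roots under N-W-.

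AWPM-19 differed widely between treatments in roots. N22 roots had 65.8 CPM under N-W+, 248 CPM under N+W- and 4.32 CPM under N-W-, against 49.9 CPM under N+W+. IR64 roots had 41.6 CPM under N-W+, 40.5 CPM under N+W- and 3.26 CPM under N-W-, against 11.5 CPM under N+W+. Both genotypes thus had their lowest root level under N-W-, and both had more under either single stress than under N+W+. Relative to N+W+, the log2 ratio in N22 roots was 0.40 under N-W+ (95% interval 0.24 to 0.56), 2.32 under N+W- (2.18 to 2.45) and -3.51 under N-W- (-4.04 to -3.06). In IR64 roots it was 1.85 under N-W+ (1.55 to 2.16), 1.81 under N+W- (1.505 to 2.13) and -1.81 under N-W- (-2.42 to -1.26). The direction was the same in both genotypes for each of the 3 treatments. Averaged over both genotypes in the edgeR fit of roots, the log2 difference was 1.13 under N-W+ (SE 0.55), 2.11 under N+W- (SE 0.55) and -2.68 under N-W- (SE 0.61).

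Set against the single stresses, which leaves the N+W+ libraries out, N-W- roots were lower still. N22 roots under N-W- had a log2 ratio of -3.91 to N-W+ (95% interval -4.43 to -3.46) and of -5.83 to N+W- (-6.34 to -5.39). IR64 roots under N-W- had -3.66 to N-W+ (-4.21 to -3.18) and -3.62 to N+W- (-4.17 to -3.14). N22 roots had 39 reads under N-W-, against 810 reads with low nitrogen alone and 2746 reads with low water alone. IR64 roots had 35 reads, against 667 and 522. Some markers of other tissues moved in the same libraries. The 3 meristem and young stem markers (OSH1, OSH6 and OSH15) summed to 136 CPM in IR64 roots under N-W-, against 7.42 to 46.7 CPM in the other root libraries, and the 36 seed remnant markers summed to 7.24 CPM in N22 roots under N+W- (6 of 36 with a read), against 1.02 to 4.27 CPM in the other roots. A single gene, the oleosin OLE18, gave 6.52 of the 7.24 CPM, and none of the other seed markers, glutelins and prolamins included, passed 0.811 CPM in any root. Their part in the levels of AWPM-19 was not tested.

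In shoots AWPM-19 had few reads. N22 shoots had 0 reads under N-W+, 6 under N+W- and 1 under N-W-, against 0 under N+W+. IR64 shoots had 2 reads under N-W+, 2 under N+W- and 0 under N-W-, against 1 under N+W+. The N22 shoot library under N+W- was the highest at 1.05 CPM, at least 2.15-fold higher than the floor of N+W+. Differences among the other shoot libraries were not detectable at this depth.

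EFA27 had its highest level under N+W- in both tissues and genotypes. N22 shoots had 4.01 CPM under N-W+, 38.6 CPM under N+W- and 9.97 CPM under N-W-, against 20.2 CPM under N+W+. IR64 shoots had 0.540 CPM under N-W+, 10.8 CPM under N+W- and 0.473 CPM under N-W-, against 7.06 CPM under N+W+. The 2 low-nitrogen libraries were thus the lowest in the shoots of each genotype. The log2 ratio to N+W+ was -2.31 under N-W+ (95% interval -3.25 to -1.54), 0.93 under N+W- (0.61 to 1.26) and -1.02 under N-W- (-1.42 to -0.63) in N22 shoots. In IR64 shoots it was -3.50 under N-W+ (-6.05 to -2.06), 0.60 under N+W- (0.05 to 1.197) and -3.71 under N-W- (-5.85 to -2.43). The IR64 values under low nitrogen rest on 3 and 4 reads. The 11 shoot markers were also lower in these libraries, at 12133 CPM under N-W+ and 29995 CPM under N-W-, against 75394 CPM under N+W+, in N22 shoots, and at 41396 and 25821 CPM, against 193336 CPM, in IR64 shoots. The 3 meristem and young stem markers were higher there, at 19.8 and 1.12 CPM, against 0.163 CPM, in N22 and at 7.91 and 15.5 CPM, against 0 CPM, in IR64. The part of either marker list in the levels of EFA27 was not tested.

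In roots EFA27 was read little outside N+W-. N22 roots had 4 reads under N-W+, 59 under N+W- and 2 under N-W-, against 8 under N+W+. IR64 roots had 14 reads under N-W+, 32 under N+W- and 0 under N-W-, against 7 under N+W+. The N+W- libraries stood at 5.34 CPM in N22 and 2.48 CPM in IR64, and the other root libraries at 0.873 CPM or less. Against N+W+, the log2 ratio under N+W- was 2.74 in N22 roots (95% interval 1.74 to 4.09) and 1.62 in IR64 roots (0.47 to 3.10). Under N-W-, EFA27 was lower than under N+W- by a log2 ratio of -4.31 in N22 roots (-7.67 to -2.67), and at least 8.89-fold lower in IR64 roots, where it had no read. The same contrast was -1.95 in N22 shoots (-2.31 to -1.60) and -4.34 in IR64 shoots (-6.42 to -3.10). EFA27 was therefore lower under N-W- than under N+W- in 4 of 4 pairs.

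OsRePRP1.1 varied little in roots and much in shoots. N22 roots had 13.0 CPM under N-W+, 25.5 CPM under N+W- and 15.5 CPM under N-W-, against 24.3 CPM under N+W+. IR64 roots had 20.1 CPM under N-W+, 31.1 CPM under N+W- and 13.7 CPM under N-W-, against 23.5 CPM under N+W+. The log2 ratios to N+W+ in roots stayed between -0.90 (N22, N-W+) and 0.40 (IR64, N+W-). By CPM the 4 low-nitrogen libraries were the lowest 4 of 8, and how many of all genes show this was not counted. The order depends on the scaling, since by TPM IR64 roots under N-W+ stood above the N+W+ roots of either genotype. In IR64 roots under N-W+ the ratio was -0.22, and 0.02 with library totals as the scale.

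In shoots the low-nitrogen libraries of OsRePRP1.1 stood above the others. N22 shoots had 19 reads (5.44 CPM) under N-W+, 4 (0.702 CPM) under N+W- and 38 (3.86 CPM) under N-W-, against 2 (0.326 CPM) under N+W+. IR64 shoots had 15 reads (2.70 CPM) under N-W+, 3 (0.385 CPM) under N+W- and 36 (4.26 CPM) under N-W-, against 3 (0.543 CPM) under N+W+. The 4 low-nitrogen libraries (2.70 to 5.44 CPM) did not overlap the 4 others (0.326 to 0.702 CPM). Over all genes the share with such a separation was not counted. The log2 ratio to N+W+ in N22 shoots was 3.69 under N-W+ (95% interval 2.01 to 7.21) and 3.34 under N-W- (1.61 to 6.66), and in IR64 shoots 2.14 under N-W+ (0.49 to 4.74) and 2.82 under N-W- (1.31 to 5.31). Root markers in these shoots summed to 18.6 CPM under N-W+ and 11.2 CPM under N-W-, against 24.3 CPM under N+W+, in N22, and to 25.9 and 31.1 CPM, against 15.7 CPM, in IR64. The part of these markers, or of the meristem and young stem markers given above, in the shoot levels was not tested.

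**Figure D2:**
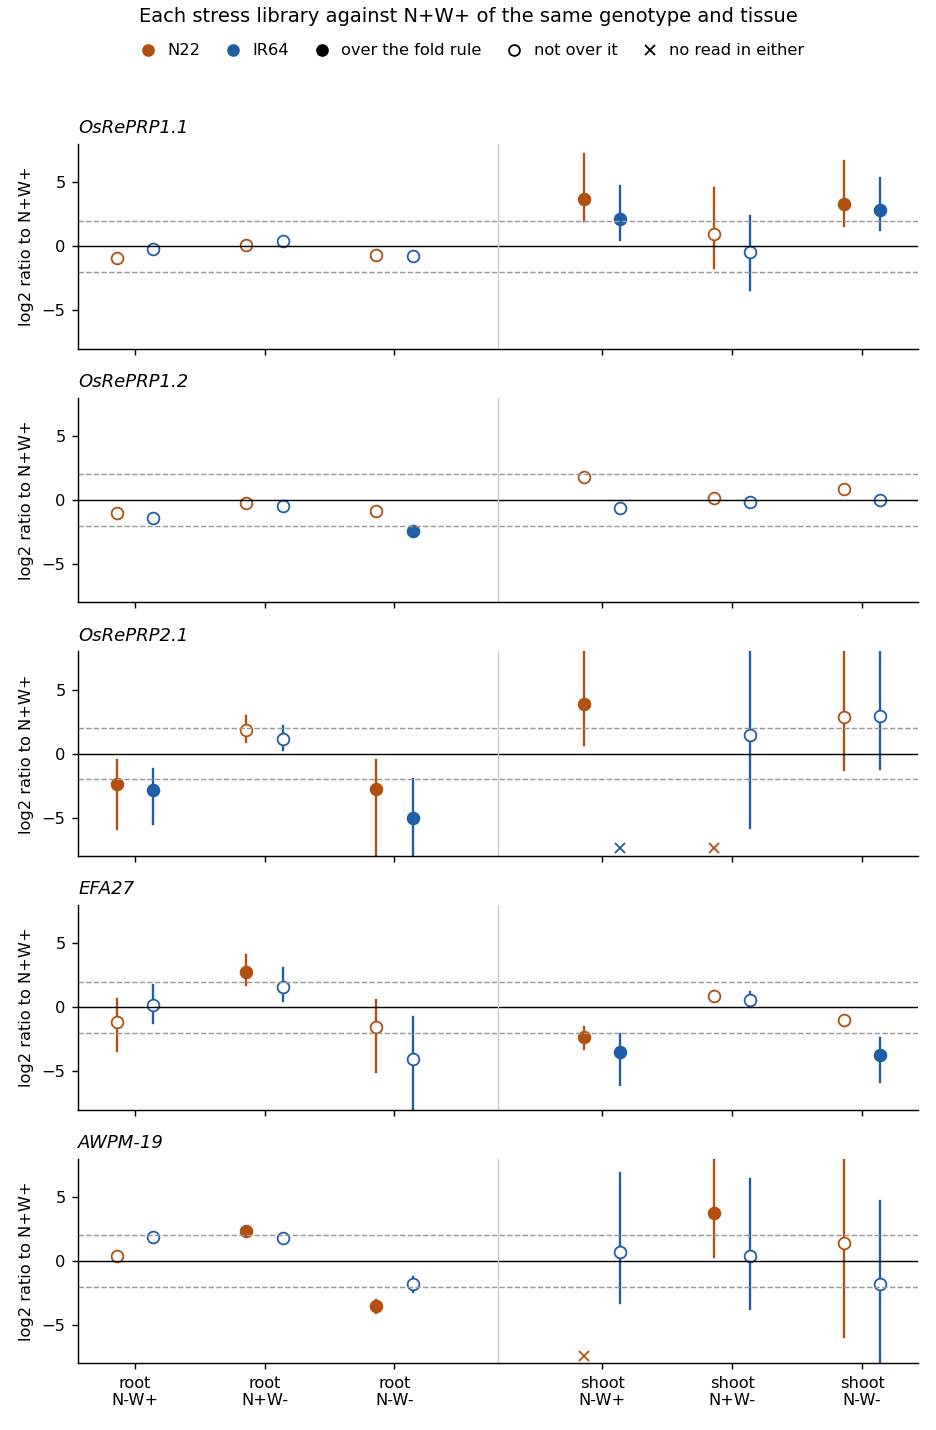
Log2 ratio of each stress library to the N+W+ library of its genotype and tissue, with 95% exact binomial intervals as bars, which end at the axis limits of -8 and 8. N22 is brown and IR64 blue, filled points lie over the fold rule (dashed lines at -2 and 2, with 1 CPM or more in either library), and crosses mark pairs without a read. OsRePRP1.1 passes the rule only in low-nitrogen shoots, and OsRePRP2.1 lies below the lower line in all 4 low-nitrogen roots.

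OsRePRP1.2, the neighbour of OsRePRP1.1, had the most reads of the 5 genes, 12842 in all. N22 roots had 18.0 CPM under N-W+, 31.6 CPM under N+W- and 20.5 CPM under N-W-, against 36.98 CPM under N+W+. IR64 roots had 88.1 CPM under N-W+, 163 CPM under N+W- and 42.5 CPM under N-W-, against 229 CPM under N+W+. In both genotypes the N+W+ library was thus the highest root library and the low-nitrogen libraries were the lowest. The log2 ratio to N+W+ was -1.03 under N-W+ (95% interval -1.28 to -0.79) and -0.85 under N-W- (-1.11 to -0.60) in N22 roots, and -1.38 under N-W+ (-1.48 to -1.28) and -2.43 under N-W- (-2.58 to -2.28) in IR64 roots. Under N+W- it was -0.23 in N22 roots (-0.44 to -0.02) and -0.49 in IR64 roots (-0.58 to -0.40).

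In shoots the genotypes differed in the order of the treatments when levels were given as CPM. N22 shoots had 144 CPM under N-W+, 44.6 CPM under N+W- and 75.4 CPM under N-W-, against 40.8 CPM under N+W+, and the 2 low-nitrogen libraries were the highest. IR64 shoots had 103 CPM under N-W+, 141 CPM under N+W- and 161 CPM under N-W-, against 160 CPM under N+W+, with N-W+ the lowest. This difference in order depends on the scaling. As TPM, IR64 shoots had 79.8 under N-W+, 73.4 under N+W- and 144 under N-W-, against 67.8 under N+W+. The 2 low-nitrogen libraries were then the highest, as in N22. The log2 ratio to N+W+ under N-W+ was 1.82 in N22 shoots (95% interval 1.60 to 2.04) and -0.64 in IR64 shoots (-0.79 to -0.48). With library totals as the scale the IR64 value was 0.11, so its direction depends on the scaling. Under N-W- the ratio was 0.88 in N22 shoots (0.68 to 1.097) and 0.02 in IR64 shoots (-0.11 to 0.14). Library totals as the scale raise these ratios by 0.27 in N22 shoots and by 0.92 in IR64 shoots.

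OsRePRP2.1 was read in roots mainly under N+W- and N+W+. N22 roots had 2 reads (0.162 CPM) under N-W+, 42 (3.80 CPM) under N+W- and 1 (0.111 CPM) under N-W-, against 11 (1.04 CPM) under N+W+. IR64 roots had 3 reads (0.187 CPM) under N-W+, 45 (3.49 CPM) under N+W- and 0 under N-W-, against 14 (1.55 CPM) under N+W+. The order was the same in both genotypes, with N+W- highest, N+W+ next and both low-nitrogen libraries at 0.187 CPM or less. The log2 ratio to N+W+ under N+W- was 1.82 in N22 roots (95% interval 0.88 to 2.97) and 1.15 in IR64 roots (0.28 to 2.15). Under N-W+ it was -2.40 in N22 roots (-5.90 to -0.49) and -2.81 in IR64 roots (-5.49 to -1.21). Under N-W- it was -2.76 in N22 roots (-8.66 to -0.45), and the level was at least 5.56-fold lower than under N+W+ in IR64 roots.

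Shoot reads of OsRePRP2.1 in N22 numbered 5 under N-W+, 0 under N+W- and 4 under N-W-, against 0 under N+W+, and in IR64 they numbered 0, 1 and 4, against 0. Its highest shoot library was N22 under N-W+ at 1.43 CPM, at least 2.92-fold higher than the floor of N+W+. The relative OsRePRP2.2 had 0, 24 and 0 reads in N22 roots in the same order of treatments, against 8 reads under N+W+, and 3, 44 and 1 reads in IR64 roots, against 11 reads. In shoots it had 10, 0 and 6 reads in N22, against 0 reads, and 1, 7 and 12 reads in IR64, against 0 reads. Both OsRePRP2 genes thus had their highest root level under N+W- in each genotype.

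Under the fold rule, a log2 ratio beyond 2 in either direction and 1 CPM or more in either library, 17 of the 60 values of the 5 genes against N+W+ lay over the rule. The genes had been chosen with stress results known, and nothing is read from the count. In N22 roots the share of all genes over the rule was 7.73% for N-W+, 2.35% for N+W- and 5.94% for N-W-. It was 7.39%, 5.29% and 6.66% in IR64 roots, 28.5%, 10.7% and 15.4% in N22 shoots, and 24.4%, 9.84% and 25.8% in IR64 shoots, each in the same order of treatments. OsRePRP2.1 gave 5 of the 17 values, OsRePRP1.1 and EFA27 gave 4 each, AWPM-19 gave 3 and OsRePRP1.2 gave 1. The value just inside the rule was OsRePRP1.1 in IR64 shoots under N-W+ at 2.14, and the one just outside was AWPM-19 in IR64 roots under N-W+ at 1.85. Without the shallowest library, N22 shoots under N-W+, 14 of 55 values lay over it. Library totals as the scale move all ratios to N+W+ by -0.04 to 0.92 on the log2 scale, most in IR64 shoots under N-W-.

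Between N-W- and the single stresses, 12 of 40 values lay over the rule. Of all genes, 3.98% (N22 roots), 7.48% (IR64 roots), 12.6% (N22 shoots) and 4.06% (IR64 shoots) did against N-W+, and 5.99%, 10.6%, 11.1% and 17.1% did against N+W-. Against N+W-, 3 genes were lower and none higher in the roots of each genotype (EFA27, AWPM-19 and OsRePRP2.1), with 3.75% of genes lower in N22 roots and 5.41% in IR64 roots. In shoots 1 gene was higher and 1 lower in each genotype against N+W-. OsRePRP1.1 was higher, with a log2 ratio of 2.36 in N22 (95% interval 0.99 to 4.41) and 3.27 in IR64 (1.81 to 5.81), where 6.30% and 10.8% of genes were higher, and AWPM-19 in N22 (6 reads under N+W-) and EFA27 in IR64 were lower, where 4.80% and 6.24% of genes were. Against N-W+, AWPM-19 was lower in both roots, where 1.55% of genes were lower in N22 and 3.58% in IR64, and no gene of the 5 passed in shoots, where 12.6% and 4.06% of genes did in either direction. The single-stress libraries of each genotype serve in both kinds of contrast here, so these counts share libraries.

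The genotypes were compared within each tissue, with treatment as a term. In roots 14.0% of 24285 genes were called (6.72% higher and 7.33% lower in N22), and 1 of the 5 genes was among them, all 5 having been tested. OsRePRP1.2 was lower in N22 roots, at 18.0 to 36.98 CPM, against 42.5 to 229 CPM in IR64 roots. The log2 difference was -2.10 (SE 0.28, edgeR adjusted p = 0.00327), N22 was lower in 4 of 4 treatments, and the ranges of the genotypes did not overlap. How often such ranges are separate over all genes was not counted. Single pairs ran from -2.63 under N+W+ to -1.05 under N-W-. OsRePRP1.1, its neighbour on the chromosome, was not called in roots (log2 -0.17, edgeR adjusted p = 0.578) and was higher in N22 in 2 of 4 treatments.

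AWPM-19 was higher in N22 roots in 4 of 4 treatments without passing the test. Its log2 difference was 1.52 (SE 0.41, edgeR adjusted p = 0.0568), and single pairs ran from 0.40 under N-W- to 2.62 under N+W-. The call depends on the processing, since the adjusted p was 0.0326 with unique reads, 0.00190 with DESeq2, 0.0378 when IR64 roots under N-W- were left out and 0.0386 when those of N22 were. EFA27 (log2 0.30, edgeR adjusted p = 0.792) and OsRePRP2.1 (log2 -0.03, edgeR adjusted p = 0.992) were not called, and both were higher in N22 in 2 of 4 treatments.

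In shoots 6.62% of 22913 genes were called (2.49% higher and 4.13% lower in N22), and of the 5 genes 3 were tested and EFA27 was called. EFA27 had 4.01 to 38.6 CPM in N22 shoots, against 0.473 to 10.8 CPM in IR64 shoots. N22 was higher in 4 of 4 treatments, with a log2 difference of 2.49 (SE 0.48, edgeR adjusted p = 0.0265) and single pairs from 1.51 under N+W+ to 4.25 under N-W-, although the ranges of the genotypes overlapped. The call was lost without the N-W+ or the N+W- shoot library of either genotype (adjusted p from 0.0602 to 0.0694), while the log2 difference in these fits was 2.36 to 2.82. OsRePRP1.2 had a log2 difference of -1.02 (SE 0.45, edgeR adjusted p = 0.233) and was lower in N22 in 3 of 4 treatments. Without the N-W+ shoot library of either genotype it was called, at -1.55 (adjusted p of 0.0332 without that of IR64 and 0.0324 without that of N22). OsRePRP1.1 was not called (log2 0.38, edgeR adjusted p = 0.710), and AWPM-19 and OsRePRP2.1 had too few shoot reads to be tested. Of the genes called in shoots, 37.6% were higher in N22, and 59.6% with library totals as the scale. Whether the genotype difference itself depends on the tissue was asked after the data had been seen. In the edgeR test of the interaction 4 of 21692 genes (0.0184%) were called, against 381 by DESeq2 and 2060 at an unadjusted p of 0.05, and none of the 4 genes tested here was among them (adjusted p of 0.549 or more).

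**Figure D3:**
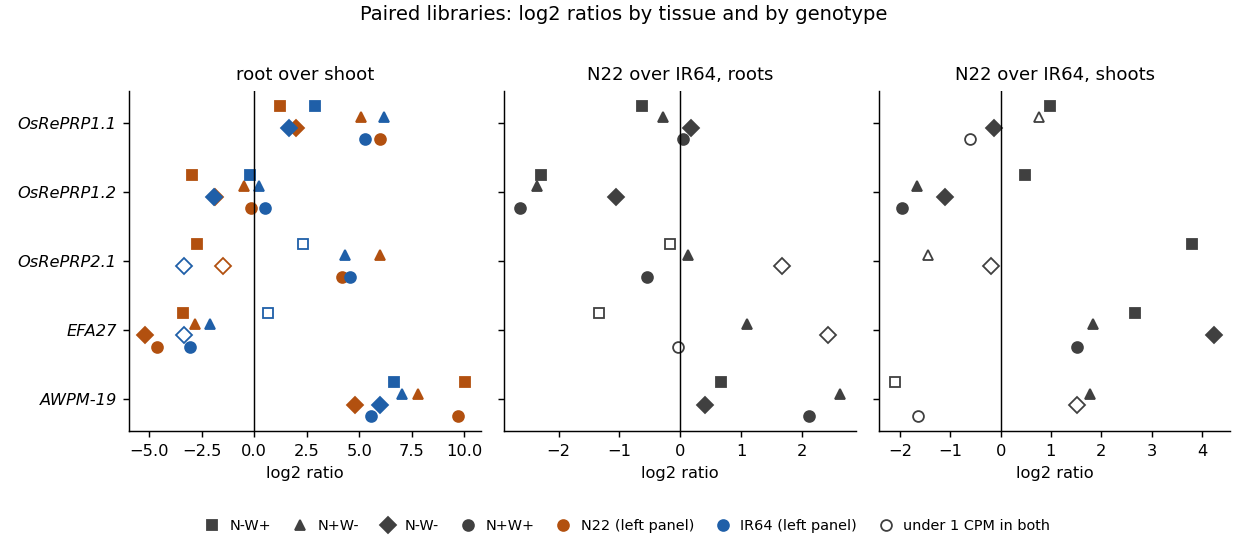
Log2 ratios of paired libraries for the 5 genes. Root over shoot is on the left (N22 brown, IR64 blue), N22 over IR64 in roots in the middle and in shoots on the right, with the treatment given by the marker shape and open markers where both libraries have under 1 CPM. AWPM-19 lies to the right of 0 in 8 of 8 root and shoot pairs, OsRePRP1.2 to the left in 4 of 4 root pairs of the genotypes, and EFA27 to the right in 4 of 4 shoot pairs.

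The genes most like each member were taken by Pearson correlation of log2 CPM over the 16 libraries, among 24784 genes of at least 1 CPM in 4 libraries. The points share libraries and the split by tissue, so the values within the 8 roots and 8 shoots are given beside them, with no test. AWPM-19 was most like RAB21_1 (Os11g0453900), a dehydrin of the RAB16 family, with r = 0.99 over 16 libraries, 0.97 in roots and 0.89 in shoots. RAB21_1 had 250 CPM under N-W+, 1369 CPM under N+W- and 10.4 CPM under N-W- in N22 roots, against 387 CPM under N+W+, and 165, 312 and 10.1 CPM in IR64 roots, against 88.8 CPM. As with AWPM-19, the N-W- library was the lowest root library of each genotype and N+W- the highest in N22. Next were Os01g0644200 (r = 0.97 over 16, 0.90 in roots) and OsCYP40a, a cyclophilin (r = 0.96 over 16, 0.94 in roots).

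OsRePRP1.1 was most like Os01g0595201, Os08g0514100 and OsABCG3, an ABC transporter, each with r = 0.98 over 16 libraries, 0.85 to 0.88 in roots and 0.94 to 0.97 in shoots. OsRePRP1.2 was most like OsPIP2_3, a plasma membrane aquaporin, with r = 0.86 over 16 libraries, 0.89 in roots and 0.84 in shoots. OsRePRP2.1 was most like OsTHI32, a thionin (r = 0.89 over 16 libraries, 0.97 in roots and 0.84 in shoots), and its own relative OsRePRP2.2 was among the next (r = 0.85 over 16, 0.90 in roots and 0.92 in shoots). EFA27 was most like ALDH7, an aldehyde dehydrogenase, with r = 0.91 over 16 libraries, 0.84 in roots and 0.90 in shoots. Among the 5 genes themselves, OsRePRP2.1 went with EFA27 (r = 0.91) and with OsRePRP1.1 (r = 0.91) over the 8 roots, whereas over the 8 shoots EFA27 had r = -0.64 with OsRePRP1.1 and -0.63 with OsRePRP1.2. The 2 neighbours OsRePRP1.1 and OsRePRP1.2 had r = 0.63 in roots and 0.37 in shoots.

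Other genes of the ABA pathway were counted from lists of symbols holding 12 receptors, 8 clade A phosphatases, 10 SAPK kinases, 8 bZIP and VP1 factors, 8 ABA-induced targets and OsRePRP2.2, 47 genes in all. Each stress was tested against N+W+ over both genotypes (edgeR, 3 residual degrees of freedom), with 40 of the 47 genes tested in roots and 33 in shoots. In N-W- roots 2 of 7 tested ABA-induced targets fell and none rose, where 1.22% of all genes fell and 0.399% rose. The median of the 7 was -3.89 on the log2 scale, against 0.00 over all genes, and 6 of them had an unadjusted p under 0.05. DESeq2 called 6 of the 7 lower, and over all genes it called 403 higher and 819 lower. The genes that fell by edgeR were wsi76, a galactinol synthase (log2 -4.19, SE 0.66, edgeR adjusted p = 0.0260), and RAB21_1 (log2 -4.14, SE 0.63, edgeR adjusted p = 0.0304). N22 roots had 0.443 CPM of wsi76 under N-W-, against 5.88 CPM under N+W+, and IR64 roots had 0.652 CPM, against 15.2 CPM. The log2 difference of wsi76 kept its sign in 13 of 13 alternatives and its call in 9, and that of RAB21_1 kept its sign in 13 of 13 and its call in 10. Receptors, phosphatases, kinases and factors had medians of 0.33, 0.22, -0.00 and 0.57 in these roots, and edgeR called none of them, with 4 at an unadjusted p under 0.05. DESeq2 called 1 receptor higher there.

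By level, the N-W- library was the lowest of the 4 root libraries for 7 of the 8 ABA-induced targets in N22 and 6 of 8 in IR64. The N+W- library was the highest for 7 of 8 in N22 and 4 of 8 in IR64. The share of all genes with these lowest or highest libraries was not counted, so nothing is read from the counts. Summed over the 8 targets, N22 roots had 577 CPM under N-W+, 3635 CPM under N+W- and 43.9 CPM under N-W-, against 886 CPM under N+W+, and IR64 roots had 501, 703 and 41.6 CPM, against 307 CPM. Of the 5 genes followed here, all 5 had their lowest root library under N-W- in IR64. In N22 3 of them did (AWPM-19, EFA27 and OsRePRP2.1), so this order is not particular to single genes. For EFA27 (2 reads, against 4 with low nitrogen alone) and OsRePRP2.1 (1 read, against 2) the place in N22 rests on few reads. The counting intervals of both contrasts hold 0. RAB21_1, RAB21_2, RAB16B and Rab16A are similar genes whose reads the counting could split. Their levels are uncertain to that extent, and they are not separate observations within the counts above.

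**Figure D4:**
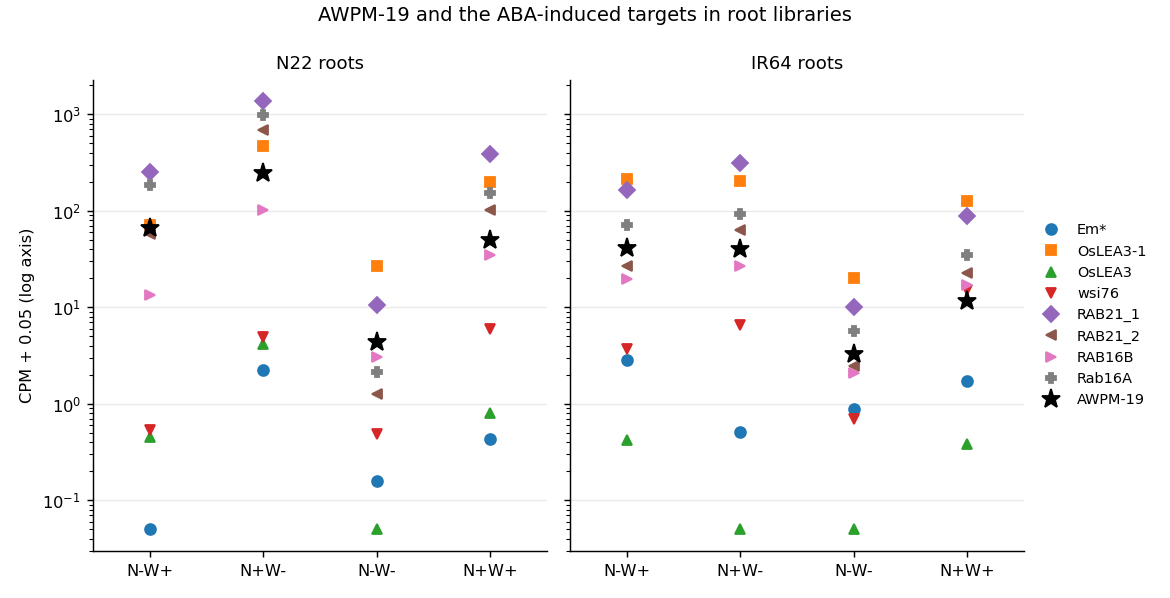
CPM plus 0.05 (log axis) of AWPM-19 (star) and the 8 ABA-induced targets in the 4 root libraries of N22 (left) and of IR64 (right). In each genotype AWPM-19 and most targets have their lowest root library under N-W-, where AWPM-19 stood at 4.32 CPM in N22 and 3.26 CPM in IR64.

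Under N+W- edgeR called none of the listed genes in roots (9 of 40 at an unadjusted p under 0.05) or in shoots (4 of 33). Of the 9 in roots, 5 were phosphatases and 2 were bZIP factors, all lower, and 2 were ABA-induced targets, both higher. DESeq2 gave an adjusted p to 30 of the listed genes in roots and 26 in shoots. It called 1 higher and 2 lower in roots, and 1 higher in shoots. Over all genes edgeR called 0.00824% in roots and 0.00% in shoots under N+W-. DESeq2 called 14 genes higher and 331 lower in roots, and 493 higher and 153 lower in shoots. The ABA-induced targets had a median log2 difference of 1.19 in roots and 2.01 in shoots under N+W-, against 0.02 and -0.00 over all genes, and the phosphatases -0.65 in roots and 0.09 in shoots. Under N-W+, none of the 40 genes was called in roots, where 2.83% of all genes were (8 at an unadjusted p under 0.05, and 1 higher and 1 lower by DESeq2). Over all genes DESeq2 called 406 higher and 1400 lower in these roots. The median of the ABA-induced targets was -0.14 there.

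In N-W+ shoots, where 13.0% of all genes were called, 3 of 33 listed genes passed (7.60% of all genes rose and 5.38% fell). The receptor OsPYL/RCAR10 rose by 1.78 on the log2 scale (SE 0.44, edgeR adjusted p = 0.0421) and the factor OsbZIP62 by 1.88 (SE 0.45, edgeR adjusted p = 0.0399). The kinase SAPK6 fell by 1.62 (SE 0.36, edgeR adjusted p = 0.0337). Their levels did so in both genotypes, with SAPK6 at 17.8 CPM under N-W+ against 76.6 CPM under N+W+ in N22 shoots, and at 16.5 against 46.7 CPM in IR64 shoots. Of 13 alternatives, 8 kept the call of OsPYL/RCAR10 and 7 each those of OsbZIP62 and SAPK6, and the sign of each was kept in 13 of 13. In N-W- shoots edgeR called none of the 33, where 6.83% of all genes were called (8 at an unadjusted p under 0.05, and 2 higher and 2 lower by DESeq2). Over all genes DESeq2 called 2200 higher and 1589 lower in these shoots.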

How the data were processed

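The authors trimmed the reads with sickle, mapped them to the rice genome IRGSP-1.0 in CLC Genomics Workbench and deposited a table per library with read counts per gene (total and unique, over exons and over the whole gene). In the same tables the authors gave RPKM, the counts relative to exon length and library depth, and TPM, which has 1 sum for all libraries. Whether strand was used in counting was not given in the sources used here. Biological replicates were pooled as RNA, before the libraries were made.

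Total exon counts were scaled by TMM over the 16 libraries (edgeR 4.0.16, R 4.3.3) and given as CPM. Log2 ratios between 2 libraries used a prior count of 0.5, and their 95% intervals are exact binomial (scipy 1.17.1). The quasi-likelihood test of edgeR, with its filter on low counts and Benjamini-Hochberg adjustment over all genes, compared root with shoot (blocked by genotype and treatment), N22 with IR64 within a tissue (treatment as a term), and each stress with N+W+ over both genotypes. With pooled libraries these p-values weigh a difference against how far it varies between treatments or genotypes, not against spread between plants. DESeq2 1.42.0, library totals, unique or whole-gene counts, no filter, other minimums, RPKM ratios and leaving out libraries were the alternatives. The scripts were tested on simulated data.

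The genes named are the 5 genes, the 3 genes most correlated with each, and the ABA genes past the test (at most 4 a list). Members of the ABA lists were matched by symbol after endings such as _1 or * had been removed. The 5 genes, the lists and the tests were chosen with earlier results of these data known.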

Additional observations from a re-analysis of the deposited data

Results flagged for a closer look

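For 3 of the genes, a stress library lay on opposite sides of its N+W+ library in 2 groups, with both counting intervals off 0. With 1 library per group the differences between the groups were not tested.

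OsRePRP1.1 was higher in shoots and lower in roots in 3 of the 4 low-nitrogen comparisons. In N22 its log2 ratio to N+W+ was 3.69 in shoots and -0.90 in roots under N-W+, and 3.34 in shoots and -0.64 in roots under N-W-. In IR64 it was 2.82 in shoots and -0.78 in roots under N-W-. In IR64 under N-W+ the shoot ratio was 2.14, but the root ratio of -0.22 had an interval that holds 0 (-0.48 to 0.03) and was 0.02 with library totals. Each of these shoot ratios rests on 2 or 3 reads under N+W+.

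OsRePRP1.2 had a log2 ratio of 1.82 in N22 shoots and -1.03 in N22 roots under N-W+, and of 0.88 in N22 shoots and -0.85 in N22 roots under N-W-. Under N-W+ its ratio was 1.82 in N22 shoots and -0.64 in IR64 shoots, where library totals as the scale gave 0.11. N22 shoots under N-W+ were the library with the fewest reads.

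OsRePRP2.1 had 5 reads in N22 shoots under N-W+ and none under N+W+. The fitted log2 ratio of 3.88 depends on the prior count, and the ratio in N22 roots was -2.40.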

How the results depend on the processing

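Of 1149 alternative values, 1010 were graded the same as the main value. Another 123 moved, a ratio beyond its counting interval or a count beyond a set margin. Only tests of the 5 genes could gain or lose a call, and 6 gained and 5 lost one. Ratios that left the fold rule are not among these losses. The sign changed in 23 of the alternative values, 5 of them tested values and 18 ratios of libraries (3 with library totals, 14 with RPKM and 1 with whole-gene counts). Against N+W+, the 17 values over the fold rule became 8 with a minimum of 5 CPM, 4 with RPKM and a pseudocount of 1, and 11 with a pseudocount of 0.1. Between N-W- and the single stresses the 12 values became 6 with a minimum of 5 CPM and 4 with RPKM and a pseudocount of 1. Between root and shoot, 9425 genes were called, against 5776 in IR64 libraries alone and 8030 to 9307 without 1 pair of libraries. Between the genotypes, 3411 genes were called in roots (1496 to 3441 without 1 library) and 1517 in shoots (694 to 1315 without 1 library, 3169 with DESeq2). The interaction of genotype and tissue gave 4 genes with edgeR and 381 with DESeq2. The 5 calls among other ABA genes became 11 with library totals, 8 with no filter, 11 with unique reads, 23 with DESeq2 and 2 to 9 without 1 library. OsRePRP2.1 between the genotypes in roots (-0.03) was 0.0084 with DESeq2 and ran from -0.18 to 0.27 without 1 library. EFA27 in the same contrast (0.30) ran from -0.22 to 0.90, with a negative sign when N+W- roots of either genotype were left out. The cause was not tested. Depth limited OsRePRP2.1 in both tissues and AWPM-19 in shoots. Replicates could not be paired, because each group is 1 pooled library without replicate numbers to pair. The pairs of tissues and of genotypes are already terms of the tests.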
